A study of Danio rerio with 6 samples.

Results

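miR-140, miR-143, miR-145 and miR-199 are microRNAs best known from mesenchyme and its derivatives. Their reads were followed in small RNA libraries of zebrafish (AB strain) primordial germ cells, the embryonic precursors of eggs and sperm. The cells were picked by green fluorescence at 6 hours post fertilization (hpf), called shield in the labels, at 11 hpf, when embryos have 3 somites, and at 24 hpf, called prim-5, with 2 libraries per stage and no other treatment or genotype named in the labels. The labels do not say which reporter made the cells green, give the tissue as gonad at every stage, and do not give the origin of each library beyond its stage and repeat number. P-values therefore rest on differences among libraries that may be only technical. Members were chosen by name as miR-140-3p, miR-143, both arms of miR-145 and both arms of miR-199, which are 6 of the 134 mature microRNAs in the deposited table. All 6 passed the filter on low counts, which left 69 microRNAs for testing. miR-140-3p passed it only through its 24 hpf libraries (96 and 134 reads), with 1 to 5 reads in each earlier library. Its entry into the tests was therefore not independent of its level at 24 hpf.

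A microRNA is cut from a hairpin precursor as a duplex of a 5p and a 3p arm. One arm, or sometimes each of them, is loaded into an Argonaute protein and guides it to mRNAs that pair with the seed, bases 2 to 8 from the 5′ end. miR-140 is the classic cartilage microRNA of vertebrates, and in zebrafish it acts on PDGF receptor signalling in the neural crest cells that form the palate. miR-143 and miR-145 are made from a shared cluster in mammals and are known for smooth muscle. miR-199 is made together with miR-214 from a long transcript of the dynamin 3 locus in the mouse, and is known from mesenchyme and the skeleton.

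The mature sequences show that these microRNAs are unrelated to each other and that the arms of a hairpin carry different seeds. They are written 5′ to 3′ as the table gives them, with T for U and the seed in capitals. miR-140-5p is no member and is added because it is the partner arm of miR-140-3p.
miR-140-3p: tACCACAGggtagaaccacggac
miR-140-5p: cAGTGGTTttaccctatggtag
miR-143: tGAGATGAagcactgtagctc
miR-145-5p: gTCCAGTTttcccaggaatccc
miR-145-3p: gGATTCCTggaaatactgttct
miR-199-5p: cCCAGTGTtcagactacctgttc
miR-199-3p: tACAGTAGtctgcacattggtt

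None of the 6 seeds occurred in any other microRNA of the table (0 others for each member). The nearest other sequence lay at an edit distance of 8 to 10, and the members are 21 to 23 bases long. The arms of miR-145 pair over an unbroken run of 10 bases, ccaggaatcc at positions 12 to 21 of the 5p arm with ggattcctgg at positions 1 to 10 of the 3p arm. The run thus covers the 3p seed. The longest such run in miR-199 is 8 bases, cagactac at positions 10 to 17 of the 5p arm, and that in miR-140 is 6 bases. Both miR-145 arms begin with G, as do 4 of the 134 microRNAs (2.99%), and miR-199-5p begins with C. The other 3 members begin with T, as do 58.2% of the table.

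In the RefSeq gene table for the assembly GRCz12tu, used here for names and neighbours only, mir140 lies within wwp2, the gene that also hosts it in mammals. mir145 lies within no protein-coding gene of that table, the only kind of host gene looked for. No entry named mir143 was found there. miR-199 has 3 loci, each within a dynamin gene (dnm1a, dnm2a and dnm3a). The one in dnm1a also lies within rabepk, and the one in dnm3a has mir214a as its nearest microRNA. Reads of mature miR-199 cannot be assigned to a locus from this table.

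The libraries held 35718 to 78973 microRNA reads, 0.317% to 0.571% of the library totals implied by the deposited RPM values. The miR-430 family, abundant in early embryos, made up 87.6% and 90.6% of them at 6 hpf, 80.2% and 84.6% at 11 hpf, and 73.7% and 65.4% at 24 hpf. Any share of microRNA reads moves with this family, so levels are given both as CPM, counts per 1000000 microRNA reads of the library, and, where it matters, among reads outside miR-430 or as deposited RPM. A microRNA table holds no germ cell mRNAs against which the labelled cell type could be checked. Counting intervals and floors cover counting error only, since PCR copies are not independent molecules.

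Of the 6 members, miR-140-3p changed most. It was close to the floor of 3 reads at 6 and 11 hpf, with 3 and 1 reads at 6 hpf and 4 and 5 reads at 11 hpf, and had 96 and 134 reads at 24 hpf. In CPM of microRNA reads this was 84.0 and 15.7 at 6 hpf, 88.3 and 104 at 11 hpf, and 1436 and 1697 at 24 hpf. Both 24 hpf libraries lay above all 4 earlier libraries, while the 6 and 11 hpf libraries were low alike. Its rank by mean level went with this: 58th, 68th and 29th at 6, 11 and 24 hpf, among 85, 99 and 115 microRNAs detected.

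**Figure D1:**
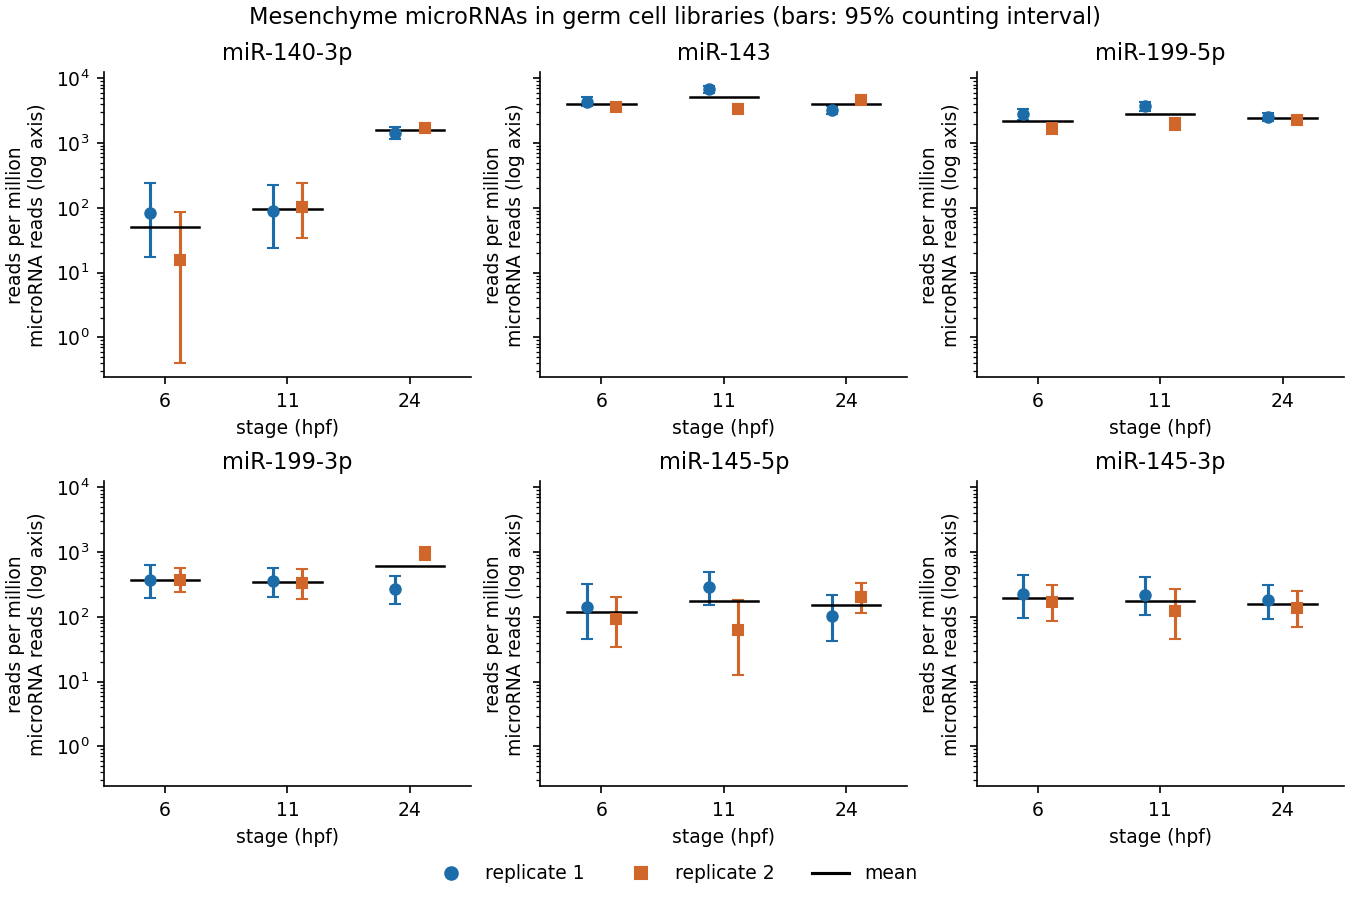
Level of each member in CPM (vertical axis, log scale, shared by all panels) at 6, 11 and 24 hpf, with 1 point per library, its 95% counting interval and the mean of the 2 libraries. miR-140-3p stands at 1436 and 1697 at 24 hpf against 84.0 and 15.7 at 6 hpf, while miR-143 and miR-199-5p are no lower than 1676 in any library.

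miR-140-3p rose at 24 hpf relative to 6 hpf by 4.01 on the log2 scale (SE 0.82, edgeR quasi-likelihood test, adjusted p = 0.045), a 16.1-fold higher level. It was the only member among the 12 called microRNAs, which are 17.4% of the 69 tested, and 1 of 6 members is close to that background. Of the called ones 6 were higher (8.7%) and 6 lower (8.7%) at 24 hpf, and no member was among the lower. Its p ranked 10th of the 69 and the size of its difference 20th. As miR-140-3p entered the tests only through its 24 hpf reads, its p, this rank and the call are not independent of its level at 24 hpf. Counted over summed reads, the ratio of TMM-scaled reads was 17.1 (95% counting interval 6.58 to 63.2), from 230 reads at 24 hpf and 4 at 6 hpf. The log2 difference was larger with RLE size factors (4.52), library size only (5.01) and library totals (5.25). Among reads outside miR-430 the log2 of its mean share at 24 hpf over 6 hpf was smaller, at 3.62. Its shares there were 0.545% and 0.491% at 24 hpf against 0.0677% and 0.0166% at 6 hpf.

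The call on miR-140-3p was close to the threshold and held in 10 of 17 alternative settings, with adjusted p-values from 0.0028 (DESeq2) to 0.240. It did not pass without 6 hpf replicate 1 (edgeR adjusted p = 0.078), without 6 hpf replicate 2 (0.166), without 24 hpf replicate 1 (0.240) or without 24 hpf replicate 2 (0.230). Nor did it pass with no filter (0.118) or with a robust fit (0.0502). Its log2 difference stayed between 3.67 and 5.25 in all 17.

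Against 11 hpf, miR-140-3p at 24 hpf stood 3.54 higher (SE 0.79, edgeR adjusted p = 0.085), which did not pass. Here too the p is not independent of its level at 24 hpf, through which it entered the tests. No microRNA passed in that comparison (0 of 69, 0%), in which 14 of 69 had an unadjusted p under 0.05, miR-140-3p among them, and DESeq2 called 3, miR-140-3p again among them. Between 11 and 6 hpf it differed by 0.47 (SE 0.79, edgeR adjusted p = 0.798), and the counting interval of the ratio, 0.408 to 6.50, spans 1. A difference between these early stages was not detectable at 9 and 4 reads per stage. In cells pooled for a library, more reads per cell and more cells carrying the microRNA cannot be told apart.

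The partner arm miR-140-5p stayed near 0, with 0 and 0 reads at 6 hpf, 1 and 1 at 11 hpf and 2 and 4 at 24 hpf. The floor of 3 reads was 84.0 and 47.0 CPM in the 6 hpf libraries, and the 95% counting interval of 0 reads reached 103 and 57.8 CPM there. At 24 hpf the 3p arm thus held 97.5% of miR-140 reads (exact 95% interval 94.5% to 99.1%, 230 of 3p against 6 of 5p).

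Summed microRNAs of 3 lists known from other cell types also stood higher in the 24 hpf libraries, though not every member did. Of the 3 skeletal and cardiac muscle microRNAs in the table (miR-1, miR-206-3p and miR-499-5p), the summed share of microRNA reads was 0.0882% and 0.125% at 24 hpf against 0.0280% and 0.0157% at 6 hpf. Among reads outside miR-430 that sum was 0.335% and 0.363% at 24 hpf against 0.226% and 0.166% at 6 hpf. miR-206-3p and miR-499-5p were at 0 reads at 6 hpf, while miR-1 had 8 and 27 reads at 24 hpf against 10 and 10 at 6 hpf, overlapping in CPM. miR-499-5p had 0 and 22 reads at 24 hpf. Of the 3 neuronal microRNAs (miR-124-3p, miR-9-5p and miR-9-4-3p), the sum was 0.0748% and 0.0557% at 24 hpf against 0% and 0.00157% at 6 hpf, where miR-124-3p and miR-9-4-3p had no reads. At 24 hpf each of these came from 1 library, with 32 and 0 reads of miR-124-3p and 0 and 42 of miR-9-4-3p. Of the 3 muscle microRNAs 2 were tested, and 0 passed between 24 and 6 hpf. None of the 3 neuronal microRNAs had enough reads to be tested. The 3 sensory organ microRNAs (miR-182-5p, miR-183-5p and miR-96-5p) summed to 0.262% and 0.409% at 24 hpf against 0.00280% and 0.00313% at 6 hpf. miR-182-5p, at 0 reads at 6 hpf, passed between these stages (log2 difference 8.26, SE 0.81, edgeR adjusted p = 0.045). It had entered the tests only through its 24 hpf reads (49 and 82), and against 0 reads the size of that difference is not measured. miR-96-5p had 26 and 1 reads at 24 hpf against 0 and 2 at 6 hpf. The endothelial and epithelial sums were not higher in both 24 hpf libraries. The 3 endothelial microRNAs (miR-126a-3p, miR-126a-5p and miR-126b-5p) summed to 0.0224% and 0.0760% at 24 hpf against 0.0476% and 0.0423% at 6 hpf. The 3 epithelial microRNAs (miR-200a-3p, miR-200b-3p and miR-429a) summed to 0.0284% and 0.0228% at 24 hpf against 0.0504% and 0.0924% at 6 hpf, where miR-429a had no reads. The part of such cells in the miR-140-3p result was not tested.

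miR-143, the smooth muscle microRNA, was the most abundant member at every stage. Its reads numbered 155 and 226 at 6 hpf, 306 and 163 at 11 hpf, and 218 and 366 at 24 hpf. In CPM that was 4340 and 3540 at 6 hpf, 6754 and 3382 at 11 hpf, and 3260 and 4634 at 24 hpf. The stages overlapped on this scale, and the widest gap was between the libraries of 11 hpf. By mean level it ranked 12th, 10th and 16th at the 3 stages. In deposited RPM, whose total is not limited to microRNAs, the libraries were closer still: 14.8 and 18.6 at 6 hpf, 21.4 and 18.1 at 11 hpf, and 18.6 and 17.2 at 24 hpf. The highest library was there 1.45 times the lowest.

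The sign of the difference of miR-143 between 24 and 6 hpf depended on what it was measured against. Among reads outside miR-430 its share was 1.24% and 1.34% at 24 hpf against 3.50% and 3.76% at 6 hpf. As the miR-430 share was lower at 24 hpf, any microRNA that is level in CPM is lower on this scale. How many of the 69 were lower on it was not counted. With TMM scaling the log2 difference of miR-143, 24 hpf over 6 hpf, was -1.13 (SE 0.34, edgeR adjusted p = 0.090), which did not pass. It was 0.010 with library size only and 0.10 with library totals, so the sign against 0 flipped with the scaling. Relative to the median of all 69 tested microRNAs, which moved between -0.36 (TMM) and 0.88 (library totals), miR-143 stood at -0.77 (TMM), -0.76 (RLE), -0.73 (library size only) and -0.78 (library totals). Without 11 hpf replicate 1 the difference passed (-1.13, edgeR adjusted p = 0.020), as it did when the 11 hpf libraries were left out altogether (0.020), and in the other 15 of 17 alternative settings it did not, with adjusted p-values up to 0.991. Between 24 and 11 hpf it differed by -0.81 (SE 0.33, edgeR adjusted p = 0.280), and between 11 and 6 hpf by -0.32 (SE 0.33, edgeR adjusted p = 0.729).

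**Figure D2:**
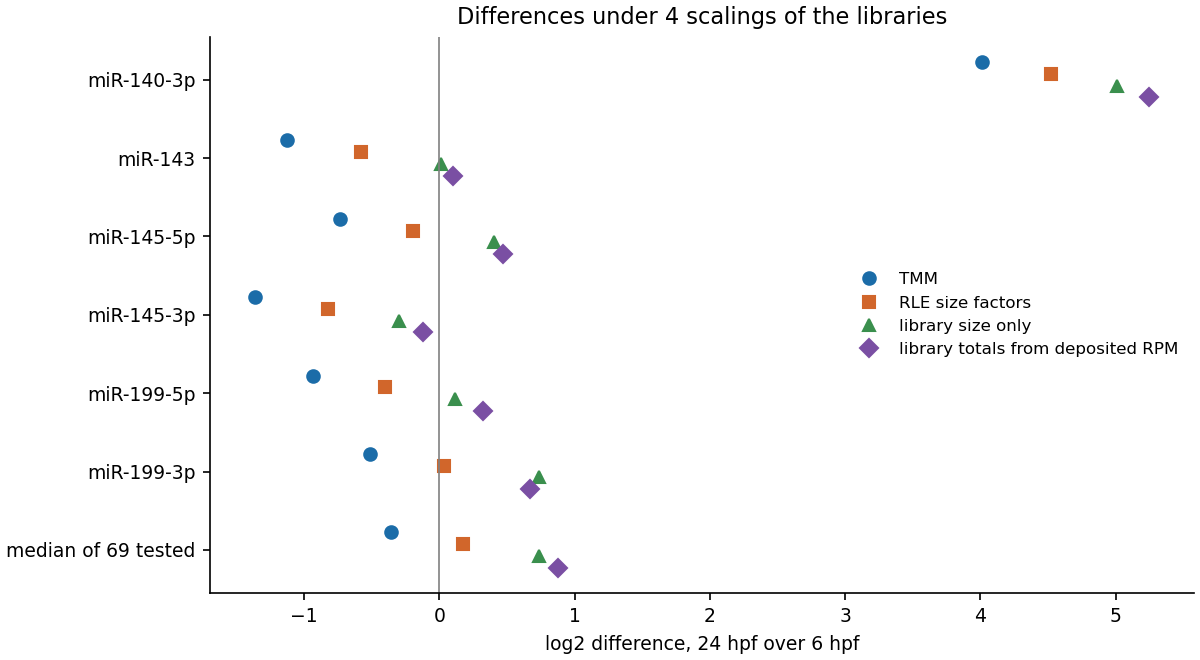
Log2 difference of 24 hpf over 6 hpf (horizontal axis) for each member and for the median of the 69 tested microRNAs, with 1 symbol per way of scaling the libraries. miR-140-3p lies between 4.01 and 5.25 under each of them, while miR-143, miR-145-5p and both miR-199 arms lie on either side of 0.

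miR-145, known with miR-143 from smooth muscle, was rare in all 6 libraries. The 5p arm, which is the arm usually studied in mammals, had 5 and 6 reads at 6 hpf, 13 and 3 at 11 hpf, and 7 and 16 at 24 hpf. The 3p arm had 8 and 11 reads at 6 hpf, 10 and 6 at 11 hpf, and 12 and 11 at 24 hpf. Neither arm separated the stages in CPM, where the highest library was 4.61 times the lowest for the 5p arm and 1.80 times for the 3p arm. Outside miR-430 the 3p arm held 0.0682% and 0.0403% at 24 hpf against 0.181% and 0.183% at 6 hpf. The 5p arm held 0.0398% and 0.0586% against 0.113% and 0.0999%. In deposited RPM the 5p arm was higher at 24 hpf, at 0.598 and 0.754 against 0.477 and 0.495 at 6 hpf, and the 3p arm overlapped.

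Neither miR-145 arm passed in any comparison. Between 24 and 6 hpf, miR-145-3p differed by -1.36 (SE 0.48, edgeR adjusted p = 0.134) and miR-145-5p by -0.73 (SE 0.73, edgeR adjusted p = 0.491). With library totals the values were -0.12 and 0.47, so the sign of the 5p arm flipped. Relative to the median of the 69, miR-145-3p stood at -1.003 with TMM and with library totals, and miR-145-5p at -0.37 with TMM and -0.41 with library totals. Between 24 and 11 hpf they differed by -0.50 (SE 0.48) and -0.63 (SE 0.72), and between 11 and 6 hpf by -0.86 (SE 0.48) and -0.10 (SE 0.74).

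miR-143 outnumbered both miR-145 arms together in every library. Its share of the reads of the 3 was 92.3% and 93.0% at 6 hpf, 93.0% and 94.8% at 11 hpf, and 92.0% and 93.1% at 24 hpf. The exact 95% intervals of all 6 libraries overlapped, within 87.1% to 97.6%. Summed by stage, miR-143 had 12.7, 14.7 and 12.7 reads for each miR-145 read at 6, 11 and 24 hpf. This ratio compares different sequences, whose efficiency of capture in a library was not measured.

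The arms of miR-145 were close to balanced. The 5p arm held 38.5% and 35.3% of reads of both arms at 6 hpf, 56.5% and 33.3% at 11 hpf, and 36.8% and 59.3% at 24 hpf. Each library had only 9 to 27 such reads, and every interval included 50%. Over all 6 libraries the 5p share was 46.3% (exact 95% interval 36.7% to 56.2%, 50 of 108 reads), a 5p to 3p ratio of 0.862. Between 24 and 6 hpf the mean share differed by 11.2 percentage points (exact two-sided permutation p = 0.667). The 11 hpf stage was not tested because 1 of its libraries had under 10 reads.

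miR-199-5p was the second most abundant member. It had 99 and 107 reads at 6 hpf, 168 and 95 at 11 hpf, and 169 and 178 at 24 hpf. That was 2772 and 1676 CPM at 6 hpf, 3708 and 1971 at 11 hpf, and 2528 and 2254 at 24 hpf, with the stages overlapping. It ranked 17th, 16th and 21st by mean level.

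Like miR-143, miR-199-5p held less of the reads outside miR-430 at 24 hpf, 0.960% and 0.652% against 2.24% and 1.78% at 6 hpf. The log2 difference was -0.94 (SE 0.39, edgeR adjusted p = 0.166), with 0.11 under library size only and 0.32 under library totals. Relative to the median of the 69 it stood at -0.58 (TMM), -0.58 (RLE), -0.62 (library size only) and -0.56 (library totals), so its sign against 0 flipped while its place below the median did not. Between 24 and 11 hpf it was -0.65 (SE 0.39, edgeR adjusted p = 0.434), and between 11 and 6 hpf -0.29 (SE 0.39, edgeR adjusted p = 0.762).

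miR-199-3p was lower, with 13 and 24 reads at 6 hpf, 16 and 16 at 11 hpf, and 18 and 76 at 24 hpf. In CPM it was even over the 6 hpf (364 and 376) and 11 hpf libraries (353 and 332), whereas the 24 hpf libraries stood apart from each other at 269 and 962. On this scale the 24 hpf stage therefore held both the lowest and the highest library. Among reads outside miR-430, where a microRNA level in CPM is lower at 24 hpf, it held 0.102% and 0.278% at 24 hpf against 0.294% and 0.399% at 6 hpf. No comparison passed: 24 against 6 hpf gave -0.52 (SE 0.68, edgeR adjusted p = 0.579), 24 against 11 hpf gave 0.28 (SE 0.68, edgeR adjusted p = 0.867) and 11 against 6 hpf gave -0.80 (SE 0.69, edgeR adjusted p = 0.684). Without 24 hpf replicate 2 the difference between 24 and 6 hpf was -1.37, and without 24 hpf replicate 1 it was 0.23.

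miR-199 favoured its 5p arm in every library. The 5p share was 88.4% and 81.7% at 6 hpf, 91.3% and 85.6% at 11 hpf, and 90.4% and 70.1% at 24 hpf. In 24 hpf replicate 2 the ratio of 5p to 3p reads was 2.34, against 4.46 to 10.5 in the other 5 libraries. Its interval of 64.0% to 75.6% did not overlap that of 24 hpf replicate 1, 85.2% to 94.2%. The spread within 24 hpf thus went beyond these intervals, which treat each read as an independent molecule, and was not tested.

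Summed by stage, the 5p share of miR-199 was 84.8%, 89.2% and 78.7% at 6, 11 and 24 hpf, and 83.4% over all libraries (exact 95% interval 80.9% to 85.6%). No pair of stages separated. The mean shares differed by -4.81 points between 24 and 6 hpf, -8.22 points between 24 and 11 hpf and 3.41 points between 11 and 6 hpf, with exact two-sided permutation p-values of 1, 0.667 and 0.667. With the miR-145 test these make 4, and no adjusted p was under 0.889. The smallest p that 2 against 2 libraries can give is 0.333.

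**Figure D3:**
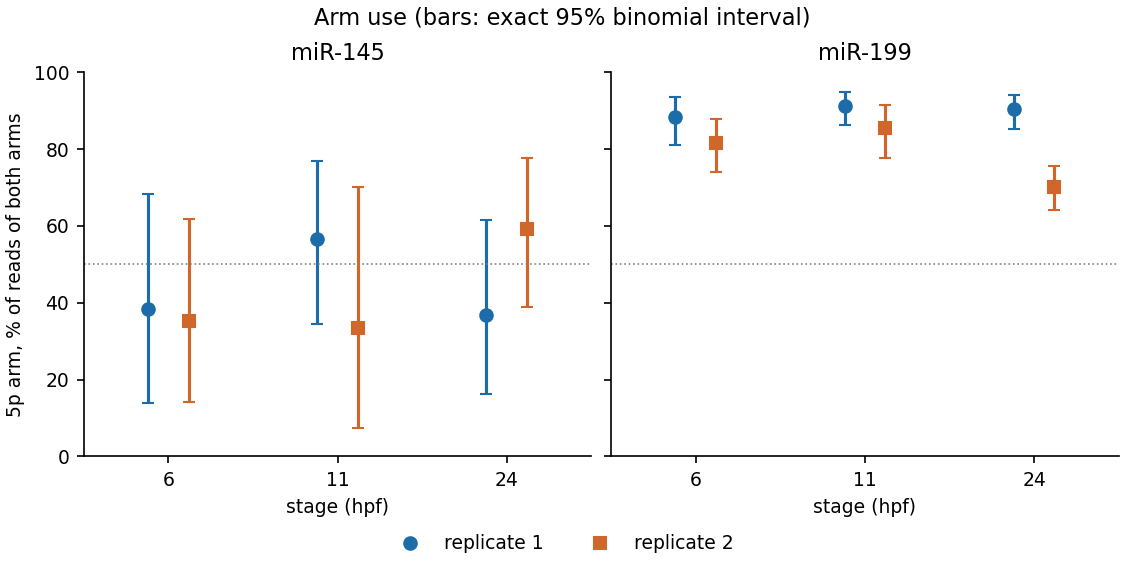
Share of the 5p arm (vertical axis, % of reads of both arms) for miR-145 and miR-199 in each library at 6, 11 and 24 hpf, with exact 95% binomial intervals and a dotted line at 50%. miR-145 lies between 33.3% and 59.3% with wide intervals, and miR-199 between 70.1% and 91.3%, lowest in 24 hpf replicate 2.

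The contrast between cartilage and smooth muscle microRNAs can be read within a library, where scaling cancels out. Its log2 ratio still depends on the count added to each microRNA, because early miR-140-3p reads were few. For each miR-140-3p read, miR-143 had 51.7 and 226 reads at 6 hpf, 76.5 and 32.6 at 11 hpf, but 2.27 and 2.73 at 24 hpf. The mean log2 ratio of miR-140-3p to miR-143 (0.5 read added to each) was -1.31 ± 0.19 at 24 hpf against -6.36 ± 1.25 at 6 hpf (SD, n = 2 each), a difference of 5.04 with an exact two-sided permutation p of 0.333. It was -5.49 ± 0.85 (SD, n = 2) at 11 hpf, 4.18 below 24 hpf, with the same exact p of 0.333. Between 11 and 6 hpf the ratio differed by 0.86 (exact p = 0.667). Over these 3 tests no adjusted p was under 0.5. As 0.333 is the smallest p that 2 against 2 libraries can give, none of them could have passed. With 1 read added in place of 0.5, the difference was 4.75 between 24 and 6 hpf, 4.05 between 24 and 11 hpf and 0.70 between 11 and 6 hpf.

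Both 24 hpf ratios lay above all 4 earlier ones, and those of 6 and 11 hpf overlapped. The same held with other partners, which is no independent support, because all these ratios share the miR-140-3p reads. Relative to miR-143 and both miR-145 arms, the ratio differed by 5.04 between 24 and 6 hpf, and relative to both miR-199 arms by 4.79. In the former, miR-143 alone made up 92.0% to 94.8% of the partner reads. miR-140-3p had 51.3 and 52.8 reads per 100 miR-199 reads at 24 hpf, against 2.68 and 0.763 at 6 hpf. The ratio of miR-143 and miR-145 to miR-199, in contrast, stayed between 1.27 and 1.85 in all 6 libraries.

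**Figure D4:**
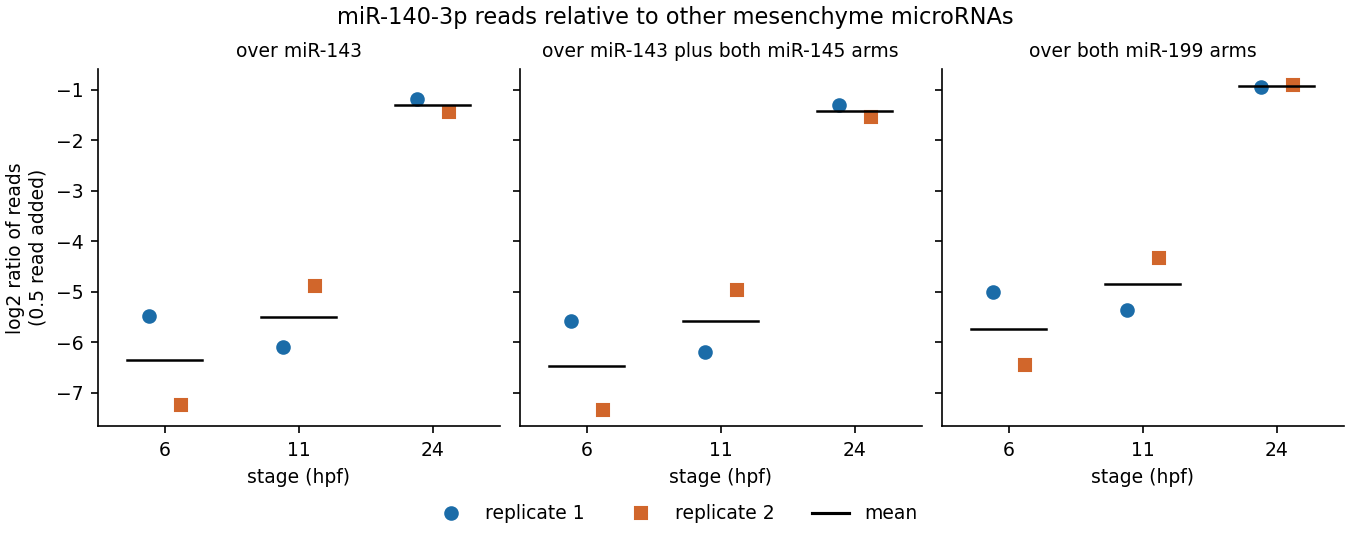
Log2 ratio of miR-140-3p reads to those of miR-143, of miR-143 with both miR-145 arms, and of both miR-199 arms (vertical axis, 0.5 read added), with 1 point per library and the mean per stage at 6, 11 and 24 hpf. In each panel both 24 hpf points lie above all earlier points, with a mean of -1.31 over miR-143 at 24 hpf against -6.36 at 6 hpf.

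The order of the members' levels differed by stage. In mean CPM at 6 hpf it was miR-143 (3940), miR-199-5p (2224), miR-199-3p (370), miR-145-3p (198), miR-145-5p (117) and miR-140-3p (49.8). No neighbours in this order overlapped between libraries, but the counting intervals of miR-145-3p, miR-145-5p and miR-140-3p did. Those of miR-199-3p and miR-145-3p overlapped as well, in both 6 hpf libraries. At 11 hpf miR-143 and miR-199-5p overlapped, and miR-145-5p overlapped both miR-145-3p and miR-140-3p. At 24 hpf miR-140-3p (1566 ± 185, SD, n = 2) stood after miR-199-5p (2391 ± 193) and before miR-199-3p (616 ± 490). Its libraries overlapped with neither neighbour, while the miR-145 arms (159 for 3p and 154 for 5p) overlapped each other.

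Taken as a group, 5 of 6 members had a log2 difference below 0 between 24 and 6 hpf with TMM, as had 37 of the 69 tested (53.6%). Their median was -0.84, against -0.36 over all tested. In TMM-scaled reads 5 of 6 members had libraries that did not overlap between these stages, and so did 68.1% of the 69. With library totals only miR-145-3p was below 0, but the median of all tested then stood at 0.88. Relative to that median the 5 members other than miR-140-3p lay between -1.003 and -0.15 with TMM and between -1.003 and -0.21 with library totals. With library size only, miR-199-3p (0.74) was level with the median (0.74). In CPM only miR-140-3p did not overlap, against 58% of the 69, and in deposited RPM 2 of 6 did not, against 63.8% of the 69. The members together held 0.778% and 0.989% of microRNA reads at 24 hpf against 0.792% and 0.587% at 6 hpf. Outside miR-430 they held 2.95% and 2.86% at 24 hpf against 6.39% and 6.24% at 6 hpf. No member passed between 24 and 11 hpf, or between 11 and 6 hpf, where 5.8% of the 69 passed (1.45% higher and 4.35% lower at 11 hpf). Between 24 and 11 hpf, 2 of 6 members did not overlap in TMM-scaled reads (46.4% of the 69), 1 in CPM (42%) and 1 in deposited RPM (49.3%). Between 11 and 6 hpf, 2 of 6 did not overlap on each of these scales, against 39.1%, 46.4% and 44.9% of the 69. Counts of 1 or 2 in 6 are too small to be told from these shares.

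Other microRNAs of skeletal, smooth muscle and mesenchymal tissue were mostly too rare to test. The 16 such names listed summed to 0.989% and 1.27% of microRNA reads at 24 hpf against 0.372% and 0.227% at 6 hpf. Of these names 3 were tested, and 0 passed in any comparison. Of the 69, 17.4% passed between 24 and 6 hpf, 0% between 24 and 11 hpf and 5.8% between 11 and 6 hpf. Between 24 and 6 hpf the 3 tested names did not move together. miR-222a-3p differed by 5.89 (SE 2.66, edgeR adjusted p = 0.183), miR-22a-3p by -1.34 (SE 0.50, edgeR adjusted p = 0.138) and miR-21 by 2.18. The median of the 3 is thus the value of miR-21, against -0.36 over all tested. miR-222a-3p had 117 and 81 reads at 24 hpf against 0 and 1 at 6 hpf, so the size of its difference is not measured. miR-21, found in many growing tissues, had 394 and 674 reads at 24 hpf against 11 and 63 at 6 hpf (log2 difference 2.18, SE 0.80, edgeR adjusted p = 0.134). miR-22a-3p had 42 and 59 reads at 11 hpf against 114 and 71 at 6 hpf (-1.54, SE 0.51, edgeR adjusted p = 0.282). miR-214, the neighbour of miR-199, had 3 reads in 11 hpf replicate 1 and 0 in the other 5 libraries, while both miR-199 arms together had 111 to 254 reads in each.

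The microRNAs with the most similar profiles differed between members. Likeness was measured by Pearson's r of log2 CPM (10 added) over the 6 libraries, as a description, since all values of a library share its total and its miR-430 share. miR-140-3p was most like miR-125b-5p (r = 0.974), miR-182-5p (0.947) and miR-210-5p (0.947). miR-125b-5p, present at every stage, had 121 and 113 reads at 24 hpf against 25 and 24 at 6 hpf, and with TMM its log2 difference was 0.57 (SE 0.47, edgeR adjusted p = 0.398) against 4.01 for miR-140-3p. A high r thus went with a much smaller difference, though r was taken on CPM and these differences with TMM. miR-182-5p and miR-210-5p had 0 reads in all 4 earlier libraries and 49 and 82, and 26 and 42 reads, in the 24 hpf libraries.

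miR-143 was most like miR-103 (0.972), let-7f (0.942) and let-7b (0.938). Its r with miR-145-5p was 0.920 and with miR-199-5p 0.779, but with miR-140-3p -0.08. miR-145-5p and miR-199-5p each had miR-7a as the nearest (0.933 and 0.887), as did miR-145-3p (0.765). After miR-7a came miR-126a-3p (0.931) and miR-103 (0.899) for miR-145-5p, and miR-34a (0.833) and miR-181a-3p (0.832) for miR-199-5p. miR-145-3p was next most like miR-34a (0.717) and miR-92a-5p (0.671). The size of change was unlike, since miR-92a-5p had 1 and 3 reads at 24 hpf against 273 and 304 at 6 hpf. miR-145-3p had 12 and 11 against 8 and 11.

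miR-199-3p followed other names, namely miR-100-5p (0.768), miR-456 (0.637) and miR-30e-3p (0.595). These share its high value in 24 hpf replicate 2, where miR-100-5p had 1124 reads against 432 in 24 hpf replicate 1. The r between the 2 arms of miR-199 was -0.14, and that between the arms of miR-145 was 0.530.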

How the data were processed

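Per the submitters' processing notes, Bowtie 1.0.0-5 and the build danRer11 were used. Not given in the sources used here are the microRNA annotation and the rule for reads that match several places. The authors deposited whole-number read counts, which are not normalised as far as the file shows. They also deposited RPM values, made as counts times 1 constant per library, implying totals of 9019179 to 21230244 reads.

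Tests of the counts used edgeR 4.0.16 under R 4.3.3 (filterByExpr with a minimum count of 10, TMM factors from 0.552 to 1.68, quasi-likelihood fit of 6 libraries, with a term for stage alone). Adjusted p-values are Benjamini-Hochberg over all 69 tested microRNAs, and under 0.05 was called. The SE is the log2 difference divided by the square root of F. For shares and ratios, SciPy 1.17.1 gave the exact permutation p (two-sided). Intervals of shares are exact (Clopper-Pearson) and those of single counts exact Poisson, both at 95%. Scripts were tested on simulated data.

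The members, lists and tests were chosen with earlier results of these data known. Named were all members, for each its 3 microRNAs with the highest r, and of the mesenchyme list those that passed or had the lowest p in a comparison. microRNAs were matched to lists by number, so that miR-219 does not take in miR-2191. Others, among them miR-214, miR-206-3p and miR-126a-3p as a marker, were named as partners or cell type markers. Alternatives were RLE, library size only, library totals, leaving out miR-430, DESeq2 1.42.0, other filters, the replicate number as a term, a robust fit, fits of 2 stages and leaving out each library.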

Additional observations from a re-analysis of the deposited data

How the results depend on the processing

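With 2 libraries per stage, and with 1 to 16 reads for miR-140-3p at the early stages and for miR-145 in any library, depth limits what could be detected. Of the alternative values for single members, 249 kept direction and side of the threshold, 31 changed sign, 7 lost the call (all on miR-140-3p between 24 and 6 hpf) and 4 gained it. Causes were not tested. Repeat numbers are not stated to mark a shared batch, and same-numbered libraries did not deviate together (r of replicate differences 0.09 for 24 and 6 hpf, -0.22 for 24 and 11 hpf, 0.14 for 11 and 6 hpf). With the replicate block, 4 microRNAs passed between 24 and 6 hpf, 0 between 24 and 11 hpf and 3 between 11 and 6 hpf, with 0 members. miR-140-3p then differed by 4.08 between 24 and 6 hpf and did not pass (edgeR adjusted p = 0.144).

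Between 24 and 6 hpf the number of members called (1) was 0 with no filter, 0 with the robust fit and 2 with only the 2 stages compared. Leaving out 1 library gave 0 to 2, with 2 without 11 hpf replicate 1 and 0 without any single library of 6 or 24 hpf. The count of changed microRNAs (12) was 19 with library totals, 5 with no filter, 20 with a filter on both libraries of a stage, 4 with the robust fit and 28 with only the 2 stages compared. It was 0 to 28 with 1 library left out, 4 and 0 without 6 hpf replicate 1 or 2, 28 and 24 without 11 hpf replicate 1 or 2, and 2 and 1 without 24 hpf replicate 1 or 2. Between 24 and 11 hpf the count (0) was 8 with RLE, 3 with library totals, 3 with DESeq2, 1 with the stricter filter and 8 with the filter on both libraries. DESeq2 and the filter on both libraries each called 1 member, miR-140-3p. Between 11 and 6 hpf the count (4) was 1 with library totals, 1 without miR-430, 7 with DESeq2 and 0 with only the 2 stages compared. It was 0 to 3 with 1 library left out, namely 0 when 6 hpf replicate 2 was left out and 2 when 11 hpf replicate 1 or 24 hpf replicate 1 was. With 1 library left out, the lone library of a stage is assumed to vary like the others.

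Log2 differences that changed sign were these. Between 24 and 6 hpf, library size only gave 0.010 for miR-143, 0.41 for miR-145-5p, 0.74 for miR-199-3p and 0.11 for miR-199-5p. Library totals gave 0.10, 0.47, 0.67 and 0.32 for the same members, and miR-199-3p was at 0.036 with RLE and 0.038 with DESeq2. Without 1 library, miR-199-3p lay between -1.37 and 0.27. Between 24 and 11 hpf, library totals gave 0.16 for miR-145-3p, 0.11 for miR-145-5p and 0.031 for miR-199-5p. Without 1 library, miR-145-5p lay between -1.10 and 0.70 and miR-199-3p between -0.57 and 1.05. Between 11 and 6 hpf, miR-143 was at 0.37 with library size only, 0.24 with library totals, 0.21 with the stricter filter and 0.011 with only these stages. miR-199-5p was at 0.36, 0.29, 0.20 and 0.046 in the same settings. miR-145-5p was at 0.041 with RLE, 0.58 with library size only, 0.36 with library totals, 0.046 with DESeq2 and 0.20 with only these stages, and lay between -1.43 and 0.47 without 1 library.

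The log2 ratio of miR-140-3p to miR-143 differed by 4.16 to 5.93 between 24 and 6 hpf, by 3.58 to 4.78 between 24 and 11 hpf and by -0.018 to 1.75 between 11 and 6 hpf with 1 library left out. The 5p share of miR-145 at 11 hpf lay between 33.3% and 56.5%. For shares of microRNA reads, the log2 of 24 hpf over 6 hpf was -1.49 for miR-143, -1.75 for miR-145-3p, -1.11 for miR-145-5p, -0.86 for miR-199-3p and -1.32 for miR-199-5p among reads outside miR-430. Over all microRNA reads it was 0.00, -0.31, 0.39, 0.74 and 0.10 in that order. For miR-140-3p it was 3.62 among reads outside miR-430 and 4.97 over all microRNA reads.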

Other observations

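The 24 hpf libraries differed from each other in more than miR-199-3p. These values were picked after they had been seen and were not tested. miR-221-3p had 2 reads in 24 hpf replicate 1 and 41 in replicate 2, miR-456 had 12 and 87, and miR-126a-3p had 14 and 58. miR-23b-3p went the other way, with 38 and 2 reads, as did miR-27b-5p with 14 and 0. miR-222a-5p had 74 reads in 11 hpf replicate 1 and 0 in the other 5 libraries, although its partner arm miR-222a-3p had 117 and 81 reads at 24 hpf. miR-122, known from liver, had 15 reads in 6 hpf replicate 1 and 0 elsewhere.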
